A study of Mus musculus with 2 samples.

Results

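RNA assembled inside the introns of zinc finger genes was described in mouse spleen cells, with 1 library from mice with the arthritis that follows collagen immunization (CIA, collagen-induced arthritis) and 1 from healthy mice. The members were the assembled noncoding transcripts of class code i, the code for a transcript that lies wholly inside an intron of an annotated gene, whose host gene had a Zfp, Zbtb, Zkscan or Zscan name followed by a number. This rule, which used no measured value, found 159 hosts among 4346 class i hosts, made up of 143 Zfp, 13 Zbtb, 2 Zkscan and 1 Zscan gene. They held 368 of the 12603 class i transcripts, 331 of them in Zfp hosts and 33 in Zbtb hosts. By annotation 3 of the hosts are not protein-coding, namely the pseudogenes Zfp125 and Zfp862-ps and the antisense RNA gene Zfp335os, which has a Zfp name but encodes no zinc finger protein. The remaining 4187 hosts served as the background.

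The CIA mice had the type II collagen form of the model, in which immunization leads to inflammation of the joints, and the healthy mice were untreated. Both library titles give day 40, whereas the treatment text of the CIA library puts the sacrifice at 42 days after the first immunization. Strain, age, sex and the number of mice in each library were not given in the sources used here. Values are FPKM, fragments per kilobase of transcript scaled to the depth of the library, so levels of different transcripts are on a scale per length. With 1 library per group there was no replicate check, and every comparison here is of these libraries and not of the conditions. In bulk spleen RNA, fewer cells of a type and less RNA per cell cannot be told apart.

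C2H2 zinc finger proteins form the largest family of DNA-binding factors in mammals, and each finger folds around a zinc ion and reads a few bases of DNA. Many Zfp proteins also carry a KRAB domain, which binds TRIM28 (KAP1) and through it recruits histone methylation and heterochromatin proteins, often at transposable elements. Zbtb proteins carry a BTB (POZ) domain in place of KRAB. That domain pairs the proteins and recruits corepressors, and several Zbtb factors direct lymphocyte development. RNA from introns in a library depleted of ribosomal RNA can come from unspliced precursors or from separate noncoding transcripts, and FPKM does not separate these sources.

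Many KRAB zinc finger genes lie in tandem arrays, each gene with its own promoter. Promoters of 131 of the 159 hosts (82.4%) were found by symbol, Ensembl identifier or synonym in a RefSeq table of GRCm38.p6. It spans 250 bases before each start and a short stretch after it. Their median GC content was 54.3% with a median of 16 CpG sites, against 52.7% and 7 over all 27025 promoters of the table. The ETS-type motif CCGGAAG, searched on both strands, occurred in 34 member promoters (26.0%), in 19 of 67 promoters (28.4%) of hosts with a KRAB-like motif, and in 9.12% of all promoters. The CCAAT box (CCAAT) occurred in 48.1% of member promoters and 37.9% of all promoters, the SP1-type motif GGGCGG in 48.1% and 35.9%, and the NRF1-type motif GCGCATGCG in 6.11% and 1.81%. Of the other class i hosts only 3236 of 4187 (77.3%) were matched, so a comparison with them is incomplete and holds for the matched ones alone. In those matched, the median GC content was 61.7% with 21.5 CpG sites, and the shares were 15.6% for the ETS motif, 37.5% for CCAAT, 63.1% for the SP1-type motif and 3.40% for the NRF1-type motif. Member promoters thus had higher GC, CpG and SP1-type values than the whole table and lower ones than these matched hosts, and the difference in the ETS share was smaller against these hosts than against the table. Matches of different motifs may share bases, and a match is a description of letters, not of binding. Promoters are shown for 2 hosts from the upper and 2 from the lower end of the ratios described further on, because the ETS motif occurs at both ends. Zfp69 (chr4:120951702-120951951, minus strand) and Zfp202 (chr9:40192066-40192315, plus strand) were among the highest Zfp hosts. Zfp112 (chr7:24112070-24112319, plus strand) and Zfp28 (chr7:6383068-6383317, plus strand) were among the lowest. Each sequence is the 250 bases before the RefSeq start, 5′ to 3′ on the gene's strand, and capitals mark the ETS motif or its reverse complement.
Zfp69: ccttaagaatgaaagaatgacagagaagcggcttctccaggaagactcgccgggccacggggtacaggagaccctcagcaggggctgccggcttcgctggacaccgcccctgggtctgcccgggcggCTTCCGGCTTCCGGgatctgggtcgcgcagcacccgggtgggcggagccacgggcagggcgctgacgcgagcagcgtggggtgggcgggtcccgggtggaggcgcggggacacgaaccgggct
Zfp202: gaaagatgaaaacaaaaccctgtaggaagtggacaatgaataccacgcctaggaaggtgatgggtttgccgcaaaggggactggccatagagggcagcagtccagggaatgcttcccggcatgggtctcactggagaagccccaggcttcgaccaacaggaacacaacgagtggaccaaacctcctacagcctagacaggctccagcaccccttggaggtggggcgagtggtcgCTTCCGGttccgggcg
Zfp112: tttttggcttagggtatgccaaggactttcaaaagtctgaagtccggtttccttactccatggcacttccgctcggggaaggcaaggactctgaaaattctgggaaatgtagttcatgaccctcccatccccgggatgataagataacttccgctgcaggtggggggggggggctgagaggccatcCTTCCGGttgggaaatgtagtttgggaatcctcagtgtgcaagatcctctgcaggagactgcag
Zfp28: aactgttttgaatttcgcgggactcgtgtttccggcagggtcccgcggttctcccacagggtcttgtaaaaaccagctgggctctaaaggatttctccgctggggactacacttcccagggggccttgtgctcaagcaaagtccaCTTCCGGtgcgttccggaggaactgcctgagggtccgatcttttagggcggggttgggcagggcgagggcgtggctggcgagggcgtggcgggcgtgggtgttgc

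In Zfp69 the motif stood 2 times and in the other promoters shown 1 time. The motif occurred in 4 of 17 matched promoters of hosts 2-fold or more higher with CIA, in 4 of 11 of those lower to that extent, and in 26 of 103 of the rest. The median log2 ratio was 0.23 over the 34 hosts with the motif and 0.34 over the 97 without it.

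Zinc finger genes were often hosts. Of the protein-coding Zfp genes in the GENCODE M21 annotation, 140 of 394 (35.5%) had an assembled intronic transcript, as had 13 of 41 Zbtb genes (31.7%), 2 of 11 Zkscan genes (18.2%) and 1 of 19 Zscan genes (5.26%). Among protein-coding genes with other names the share was 3793 of 21527 (17.6%). The Zfp36 genes, which encode CCCH proteins that bind AU-rich RNA and not DNA, had no intronic transcript in the table (0 of 4). Member genes were shorter than other hosts, with a median span of 24.2 kb against 58.2 kb, and held 4.72 intronic transcripts per 100 kb of span against 2.60. Every host has at least 1 such transcript by selection, so a shorter gene has a higher density by construction. Per host, members held fewer, at 2.31 transcripts against 2.92. No test was applied to these shares, and expression level and intron length were not matched.

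The transcripts themselves resembled the rest of the class in length and level, and differed from it in strand and in the size of the intron around them. All 368 lay inside the span of the host, as class code i requires, and none overlapped an annotated exon. The median length was 771 bases (range 201 to 26013), against 782 bases for the other class i transcripts, and 97.3% had a single exon, against 92.7%. Median FPKM was 2.28 in the CIA library and 1.91 in the healthy library, against 2.29 and 2.01 for the others. The assembler gave no strand to 78.0% of them. Of the stranded ones, 54 ran with the host and 27 against it (66.7% with the host), where the other transcripts were even, at 1531 and 1530. Among single-exon stranded transcripts the numbers were 50 and 21 for members and 1188 and 976 for the others. The intron around a member was shorter (median 12.1 kb against 22.3 kb), and the nearest exon lay closer (1840 against 3308.5 bases).

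Zinc finger hosts stood slightly higher in the CIA library, and so did the other class i hosts. Host ratios were computed as log2((CIA FPKM + 0.1)/(healthy FPKM + 0.1)) per transcript, with the median over transcripts as the host's value. A ratio printed after the summed levels of a host is this median and not the ratio of the sums. The median summed level of a Zfp host was 4.42 FPKM in CIA against 3.44 FPKM in healthy spleen cells, and the median ratio was 0.34 (interquartile range -0.09 to 0.69), with 102 of 143 hosts (71.3%) above 0. For the other hosts the median summed levels were 4.48 and 4.03 FPKM. The Zbtb median ratio was 0.31, with 11 of 13 hosts above 0, whereas the medians of the Zbtb sums lay the other way, at 4.0 FPKM for CIA and 4.35 FPKM for healthy. The other hosts had a median of 0.20, with 62.7% above 0, so the Zfp median lay 0.14 and the Zbtb median 0.11 above it. The Zbtb distance was smaller when host values came from summed FPKM (0.22 against 0.20 for the other hosts) or with a pseudocount of 1 FPKM (0.21 against 0.15). The median of all class i hosts was itself 0.20. Relative to that shift, 84 of 143 Zfp hosts (58.7%) stood above the middle, against 49.7% of the other hosts.

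Few hosts passed a size rule of 2-fold, which was used in place of a test. It was met by 18 of 143 Zfp hosts in the higher direction (12.6%) and 10 in the lower (6.99%). The 18 include the antisense gene Zfp335os, with 1 transcript at 2.15 and 1.01 FPKM in the CIA and healthy libraries. Of the other hosts 11.7% met the rule in the higher direction and 10.3% in the lower, so the share of higher Zfp hosts was near the background. After centring on the median of all class i hosts the Zfp counts were 13 higher and 12 lower, so that the share of higher hosts among those past the rule went from 64.3% to 52.0%. In the other hosts that share went from 53.0% to 41.1%. Single transcripts gave 61 higher (16.6%) and 28 lower (7.61%) among members, beside a background of 15.6% and 10.4%. In the authors' deposited table, p-values were below 0.05 for 2 member transcripts (0.543%), beside 1.14% of the other class i transcripts, and no member had a q-value below 0.05. The 2 were a Zfp511 transcript, lower in the CIA library (p = 0.0202, q = 0.291 in the authors' deposited table), and a Zfp827 transcript, higher in it (p = 0.0382, q = 0.436 in the authors' deposited table). The authors' deposited table marks 15 member transcripts as significant, 14 higher and 1 lower (4.08%), beside 5.41% of the others.

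**Figure D1:**
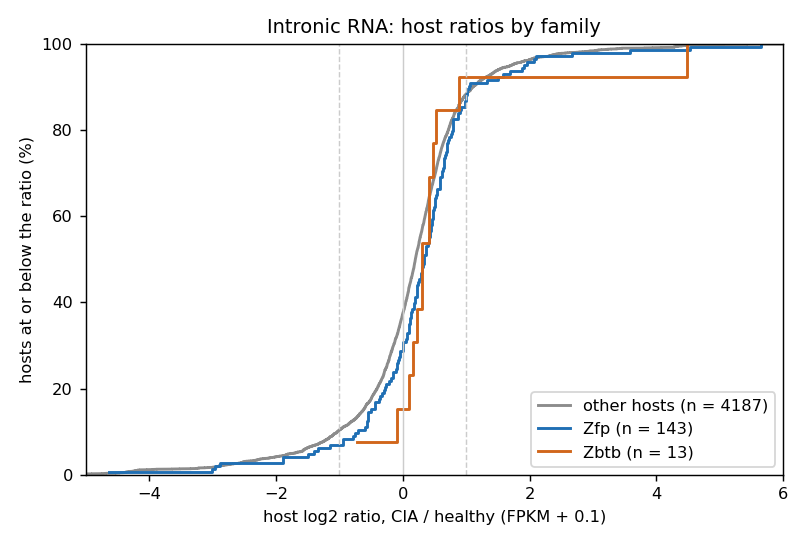
Cumulative share of hosts (percent, vertical axis) at or below each host log2 ratio of CIA to healthy FPKM (horizontal axis), for 143 Zfp, 13 Zbtb and 4187 other hosts. Dashed lines mark 2-fold. The Zfp curve lies to the right of the other hosts near its middle (median 0.34 against 0.20) and close to them above 2-fold; hosts beyond the axis ends are not drawn.

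Ratios far from 0 came mostly from transcripts with a low mean of both libraries. Of the 368 transcripts, 366 had at least 1 FPKM in either library, and among these the lowest value of the higher library was 1.67 FPKM. The other 2, both in Zfp808, were listed at the floor of 0.0001 FPKM, which stands in place of 0, in both libraries. Of the 89 transcripts past 2-fold, 76 had a mean of both libraries under 2 FPKM. In that lowest range 50 of 178 transcripts were at least 2-fold higher (28.1%, others 24.5%) and 26 at least 2-fold lower (14.6%, others 19.9%). Between 2 and 3 FPKM 8 of 106 were higher (7.55%, others 7.54%) and 1 lower (0.943%, others 2.49%). Between 3 and 5 FPKM 2 of 53 were higher (3.77%, others 6.57%) and 1 lower (1.89%, others 1.46%). At 5 FPKM or more 1 of 31 transcripts, from 21 hosts, was higher by 2-fold or more (3.23%, others 8.53%) and none lower (others 0.656%), and 23 of the 31 were above 0. The median in that highest range was 0.22, against 0.29 for the other class i transcripts at the same level. Below 2 FPKM the member median was 0.44 against 0.16, between 2 and 3 FPKM it was 0.30 against 0.26, and between 3 and 5 FPKM both were 0.27. These ranges are not independent of the ratio, because at a given higher value a larger ratio means a lower mean. The fall in the 2-fold shares from range to range is therefore partly built in. The part of the level in the host ratios was not tested.

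**Figure D2:**
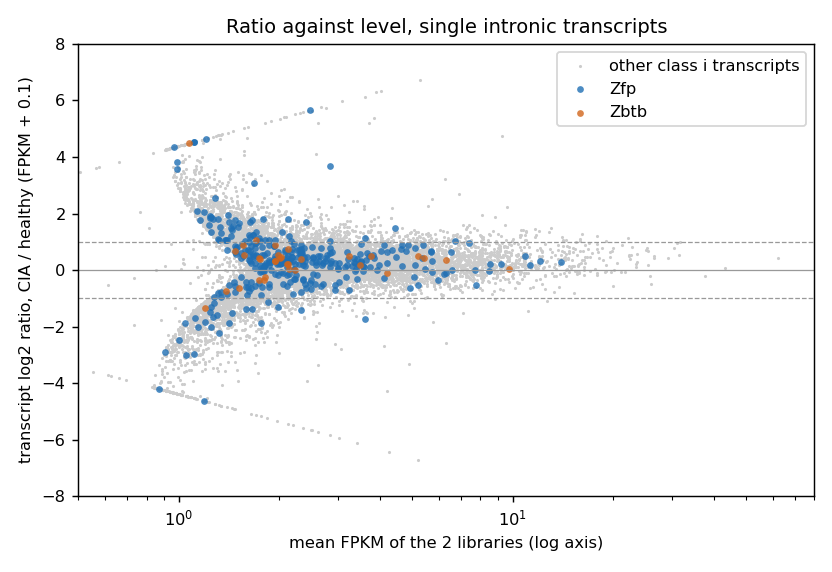
Log2 ratio of CIA to healthy FPKM of single intronic transcripts (vertical axis) against the mean FPKM of both libraries (horizontal log axis, from 0.5 FPKM), with Zfp transcripts blue, Zbtb orange and other class i transcripts grey. The spread narrows with the mean, which a large ratio itself lowers. Of the 31 member transcripts at 5 FPKM or more, 1 lies outside the dashed 2-fold lines.

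The ratios differed with length and with the number of transcripts as well. Member transcripts of 200 to 500 bases had a median of 0.21 (others -0.05), with 32 of 125 at least 2-fold higher (25.6%, others 22.2%) and 21 lower (16.8%, others 22.8%). Those of 500 to 1000 bases had a median of 0.33 (others 0.23). Those of 1000 to 2000 bases were level with the others, at 0.30 each, with 71.6% above 0 (others 71.9%). Of those of 2000 bases or more 71 of 80 were above 0 (88.8%, others 79.4%), with a median of 0.43 (others 0.34), 7 at least 2-fold higher (8.75%, others 7.13%) and none lower (others 1.30%). Hosts with 3 or more transcripts had a median of 0.39 (others 0.25), and 36 of 44 stood above 0 (81.8%, others 70.3%). Only 3 of these 44 hosts, Zfp423, Zfp710 and Zfp973, were at least 2-fold higher (6.82%, others 7.36%), and none was lower (others 3.64%). Hosts with 2 transcripts had a median of 0.29 (others 0.18). Hosts with 1 transcript had a median of 0.25 (others 0.17), 15.2% at least 2-fold higher (others 14.5%) and 11.4% lower (others 14.9%). The part of length and transcript number in the family medians was not tested.

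The Zbtb hosts were compared first by those with several transcripts. Zbtb20, a factor of B cell and plasma cell function, had 4 intronic transcripts at 6.10, 6.22, 2.64 and 7.11 FPKM in CIA and 4.27, 4.59, 1.99 and 5.52 FPKM in healthy spleen cells. All 4 were higher in the CIA library by a similar step, with log2 ratios from 0.36 to 0.51 and a host ratio of 0.41. Zbtb46, which marks classical dendritic cells, had 8 transcripts that summed to 23.4 FPKM in CIA against 20.2 FPKM in healthy spleen cells (host ratio 0.42). The most abundant of them stood at 9.85 and 9.58 FPKM and so was nearly level, while a 3873-base transcript stood at 2.01 and 1.47 FPKM. Zbtb34 had 5 transcripts with sums of 11.0 and 8.35 FPKM (0.30), of which 1 was at least 2-fold higher (2.34 and 1.06 FPKM) and 1 was lower (1.56 and 2.04 FPKM).

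Zbtb16 encodes PLZF, the factor that directs natural killer T cells and other innate-like T cells. Its 3 transcripts stood at 1.16, 2.15 and 2.32 FPKM in CIA and 1.87, 1.72 and 1.70 FPKM in healthy spleen cells, so 1 was lower and 2 were higher in the CIA library (host ratio 0.31). Zbtb2 was the lowest Zbtb host, with 0.632, 2.15 and 1.01 FPKM in CIA against 1.76, 2.11 and 1.74 FPKM in healthy spleen cells (-0.73). Of its 3 transcripts 1 was lower by at least 2-fold and 1 was level. Zbtb25 and Zbtb1 are neighbours on chromosome 12. Zbtb25 had sums of 8.17 and 5.79 FPKM in the CIA and healthy libraries, and its 2 transcripts had nearly the same log2 ratio, 0.48. Zbtb1, which is required for lymphocyte development, had 1 transcript at 3.69 and 3.29 FPKM (0.16). Both neighbours were higher in the CIA library.

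The other Zbtb hosts had 1 or 2 transcripts each. Zbtb38, which binds methylated DNA, was the only Zbtb host at least 2-fold higher, with 1 transcript at 2.15 FPKM in CIA spleen cells and a floor entry in healthy ones, so no ratio is given. Zbtb17 (Miz-1), a partner of MYC, stood at 2.54 and 1.33 FPKM in the CIA and healthy libraries (0.89). Zbtb10 stood at 2.35 and 1.61 FPKM (0.52). These 3 were the highest of the family, each on a single transcript. Zbtb24, whose human counterpart is mutated in an immunodeficiency with unstable centromeres, stood at 2.29 and 1.95 FPKM (0.22), and Zbtb41 summed to 4.0 and 3.67 FPKM (0.10). Zbtb4, another binder of methylated DNA, stood at 4.06 and 4.35 FPKM and was slightly lower in the CIA library (-0.10).

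**Figure D3:**
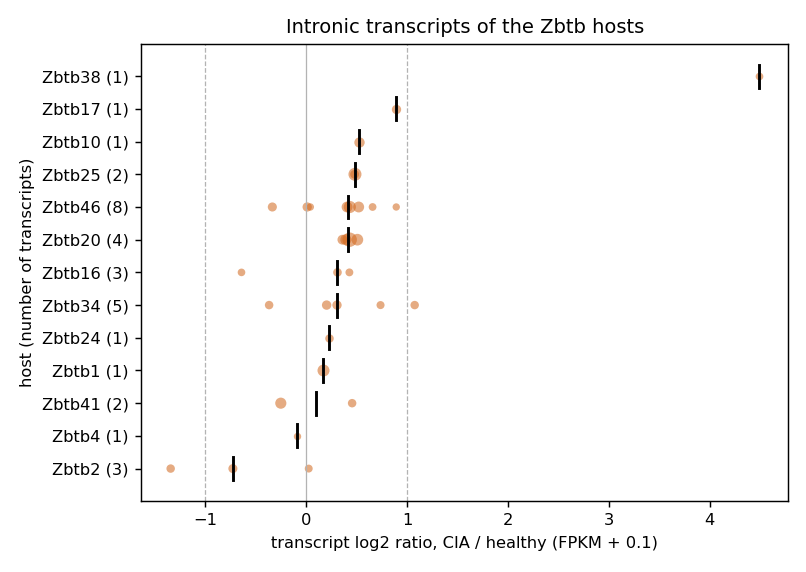
Log2 ratio of CIA to healthy FPKM (horizontal axis) of the 33 intronic transcripts of 13 Zbtb hosts (vertical axis, ordered by host ratio, number of transcripts in brackets). Each point is a transcript, larger for longer ones, and the black bar is the host median; the Zbtb38 point rests on a healthy value at the floor.

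Zkscan and Zscan proteins join a SCAN domain, through which they pair, to zinc fingers. Zkscan1 stood at 3.99 FPKM in CIA against 3.83 FPKM in healthy spleen cells, and Zscan18 summed to 3.42 and 3.30 FPKM, with 1 of its transcripts higher (2.0 and 1.30 FPKM) and the other lower (1.43 and 2.01 FPKM). Both hosts were nearly level, each at a log2 ratio of 0.06. Zkscan4 stood at 0.345 and 1.91 FPKM and was lower in the CIA library (-2.17).

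Zfp genes with described roles were taken from a list of 31 genes, of which 17 were hosts. The median of these 17 was 0.50, and 15 were above 0, 2 at least 2-fold higher and none lower, beside the background of 11.7% and 10.3%. Zfp318, which is needed for the alternative processing that yields IgD in mature B cells, had a 2508-base transcript on the host's strand at 7.91 FPKM in CIA against 5.10 FPKM in healthy spleen cells (0.62). Zfp608, known to restrain recombinase gene expression in thymocytes, had 5 transcripts at 3.60, 6.44, 9.72, 5.00 and 3.08 FPKM in CIA against 2.07, 3.75, 5.02, 2.23 and 2.91 FPKM in healthy spleen cells. All 5 were higher in the CIA library, and 3 of them, in 1 intron of 46.3 kb, had log2 ratios between 0.77 and 0.94. The longest member transcript, 26013 bases, is in this intron and runs against the host.

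Zfp831 had the highest summed intronic level of the 159 hosts. Its 6 transcripts stood at 5.21 to 7.04 FPKM in CIA and 3.26 to 4.36 FPKM in healthy spleen cells. All 6 were higher (0.46 to 0.90), and 5 of them lay in 1 intron. Every transcript was also higher in 33.2% of the other class i hosts with 2 or more transcripts. Zfp148 (ZBP-89), a factor of GC-rich promoters, had 4 transcripts with sums of 26.4 and 16.9 FPKM (0.60). Among them a 1190-base transcript against the host's strand stood at 5.34 FPKM in CIA against 0.322 FPKM in healthy spleen cells (3.69), while a 636-base transcript stood at 7.75 and 7.70 FPKM. Transcripts of 1 host thus ranged from level to far higher. Zfp292 held the highest single transcript, at 15.4 and 12.5 FPKM (0.30), which ran on the host's strand.

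Zfp423 and Zfp521 encode closely related proteins with many fingers, and both bind the B cell factor EBF1. They stood on opposite sides. Zfp423 had 3 transcripts at 1.89, 1.93 and 1.90 FPKM in the CIA library, against 0.566 and 0.366 FPKM for 2 of them in the healthy library, where the third was listed at the floor. All 3 were higher in the CIA library. Zfp521, with 17 transcripts the host with the most, summed to 22.6 and 28.5 FPKM in the CIA and healthy libraries (host ratio -0.54). Its introns differed, with all 4 transcripts of the second intron at 0.403 to 0.747 FPKM in CIA and 1.81 to 2.23 FPKM in healthy spleen cells, each at least 2-fold lower. In the next intron downstream 4 of 6 transcripts were above 0 and 2 were at least 2-fold higher (median 0.45), and in the intron with 7 transcripts the median was -0.54. All of these values lay near or under 2 FPKM, a level at which the ratios of other transcripts also spread widely.

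Among the other hosts of that list, Zfp644, a partner of the histone methyltransferases G9a and GLP, stood at 12.7 FPKM in CIA against 8.99 FPKM in healthy spleen cells (0.50). Zfp609 summed to 27.5 and 20.8 FPKM over 12 transcripts (0.52), of which 10 were higher in the CIA library. Zfp217, a component of CoREST-type corepressor complexes, stood at 6.14 and 4.52 FPKM (0.43). Zfp407 reached 2-fold through 1 low transcript (2.09 and 0.532 FPKM) beside an abundant one that differed little (9.17 and 7.91 FPKM). Zfp507 (0.65), Zfp362 (0.44) and Zfp106 (0.25) were higher in the CIA library as well. Zfp143, a factor of many housekeeping promoters, summed to 7.81 and 8.14 FPKM, Zfp131 to 6.78 and 6.74 FPKM, and Zfp638 to 9.30 and 10.8 FPKM. These last 3 were level or slightly lower in the CIA library by their sums, although the median over the 4 Zfp143 transcripts was 0.19.

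**Figure D4:**
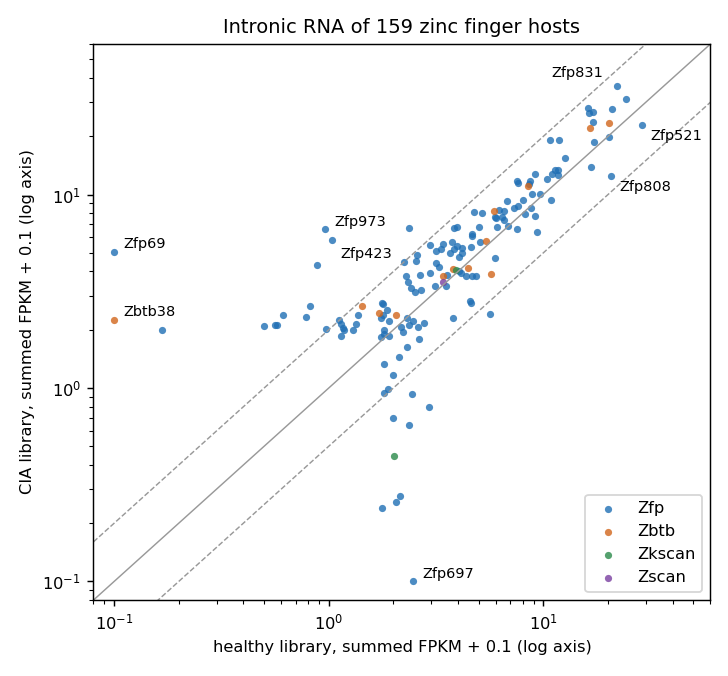
Summed intronic FPKM + 0.1 of the 159 hosts in the CIA library (vertical log axis) against the healthy library (horizontal log axis), coloured by family, with the line of equality and dashed 2-fold lines. Zfp831 (36.4 and 21.8 FPKM) and Zfp521 (22.6 and 28.5 FPKM) lie on opposite sides of equality, and hosts listed at the floor in a library, such as Zfp69, lie at an axis value of 0.1.

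Hosts with many transcripts showed how far introns of a gene went together. Zfp395 had 8 transcripts, all higher in the CIA library (sums 19.0 and 10.6 FPKM, host ratio 0.98), with the least difference in a 562-base transcript at 3.03 and 2.95 FPKM. Zfp827, which recruits the NuRD complex to telomeres, summed to 23.7 and 16.9 FPKM over 13 transcripts (0.54), but they ran from -1.53 to 1.81. Zfp654 summed to 31.2 and 24.3 FPKM over 12 transcripts (0.29). Zfp516 summed to 11.7 and 7.42 FPKM over 5 transcripts (0.80), 1 of which was lower in the CIA library (2.06 and 2.87 FPKM). Zfp933 had 4 transcripts, all higher (sums 19.1 and 11.8 FPKM), and Zfp710 had 3, all higher (26.1 and 16.2 FPKM). On the lower side were Zfp808, a KRAB-type gene with sums of 12.3 and 20.5 FPKM over the 4 of its 6 transcripts not at the floor, and the pseudogene Zfp125, with 13.8 and 16.5 FPKM (-0.30). Zfp934 (0.13) and Zfp950 (0.18) differed little.

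Over all 80 member hosts with 2 or more transcripts, 35 had every transcript higher in the CIA library (43.8%, others 33.2%), 4 had every transcript lower (5%, others 12.1%) and 41 were mixed (51.3%, others 54.7%). Zfp808 counts as mixed only because its transcripts at the floor in both libraries have a ratio of 0, and its others were all lower. The median range within a host was 1.10 on the log2 scale, against 1.06 for the other hosts. In 6 hosts at least 1 transcript was 2-fold higher and at least 1 was 2-fold lower (7.5%, others 13.0%), namely Zfp287, Zfp521, Zfp652, Zfp712, Zfp827 and Zfp950.

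**Figure D5:**
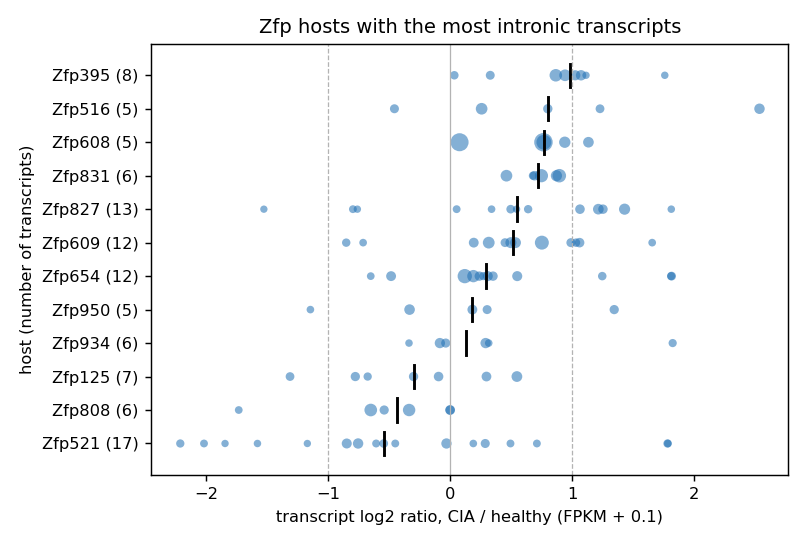
Log2 ratio of CIA to healthy FPKM (horizontal axis) of every intronic transcript in the 12 Zfp hosts with the most transcripts (vertical axis, number of transcripts in brackets). Points are transcripts, larger for longer ones, and black bars are host medians. All transcripts of Zfp395, Zfp608 and Zfp831 lie above 0, whereas those of Zfp521 and Zfp827 spread to both sides. The 2 Zfp808 points at 0 are transcripts at the floor in both libraries.

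The hosts at the ends of the Zfp order mostly held few and short transcripts. At the upper end, Zfp69, a KRAB-type gene linked to diabetes in mice, had 4.94 FPKM in CIA spleen cells and a floor entry in healthy ones. Zfp973 had 2.22 and 2.41 FPKM in 2 transcripts with floor entries in the healthy library, and 1.89 against 0.859 FPKM in its other one. Its transcripts were long, at 2068 to 3325 bases. Zfp691 stood at 1.90 and 0.0669 FPKM (3.59), and Zfp202 at 2.28 and 0.733 FPKM in 1 transcript and 1.93 and 0.043 FPKM in the other (2.67). Beside Zfp423, the upper 10 were completed by Zfp40 (1.98 and 0.396 FPKM), Zfp810 (2.29 and 0.513 FPKM), Zfp821 (2.01 and 0.459 FPKM), Zfp784 (2.03 and 0.476 FPKM) and Zfp329 (2.55 and 0.718 FPKM). In each pair the CIA library is given first and is the higher.

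At the lower end, Zfp697 had a floor entry in CIA and 2.38 FPKM in healthy spleen cells. Zfp455 stood at 0.156 and 1.95 FPKM in the CIA and healthy libraries (-3.00), Zfp428 at 0.176 and 2.04 FPKM (-2.95) and Zfp112 at 0.140 and 1.67 FPKM (-2.88). Zfp28 (0.694 and 2.82 FPKM), Zfp189 (0.545 and 2.27 FPKM), Zfp64 (0.602 and 1.88 FPKM) and Zfp511 (0.833 and 2.35 FPKM) followed. Zfp995 (-1.33) and Zfp141 (-1.15) had 2 transcripts each, all lower in the CIA library. Of the 20 hosts at both ends, 15 had a single transcript, 21 of their 27 transcripts were under 600 bases, and the median of the higher library's value was 2.04 FPKM. Over all members, 79 of 159 hosts had a single transcript, 153 of 368 transcripts were under 600 bases, and that median was 2.43 FPKM.

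Features of the encoded proteins were set beside the ratios. A C2H2 pattern was found in the longest GENCODE coding sequence of 136 of 140 Zfp hosts with one, with a median of 10.5 fingers and at most 34, and in all 13 Zbtb hosts, with a median of 5. A KRAB-like motif was found in 77 Zfp hosts and in no Zbtb host. It was not found in Zkscan1 or Zkscan4 either, and was found in 50 of 3795 other class i hosts with a coding sequence. The pattern was not checked against annotated domains, so hosts without it may still encode a KRAB domain. The 77 Zfp hosts with the motif had a median log2 ratio of 0.25, 9 at least 2-fold higher (11.7%) and 5 lower (6.49%), and 1.87 transcripts per host. The 63 coding Zfp hosts without the motif had a median of 0.44, 8 higher (12.7%) and 5 lower (7.94%), and 2.83 transcripts per host. Of the other class i hosts 11.7% were at least 2-fold higher and 10.3% lower, so both higher shares were near the background. By finger number the medians were 0.50 for 1 to 4 fingers (20 hosts), 0.34 for 5 to 9 (34 hosts), 0.22 for 10 to 14 (45 hosts) and 0.37 for 15 or more (37 hosts), with no steady order.

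Some groups of neighbouring hosts shared a direction and others did not. With a limit of 200 kb between neighbours, 56 hosts fell into 19 groups, and in 9 of the 19 all hosts were on the same side of 0. Since 115 of all 159 hosts were above 0, some groups share a side whatever their position. No comparison with hosts that lie apart was made. A group on chromosome 17 with 7 hosts, among them Zfp51, Zfp52 and Zfp995, ran from -1.33 to 0.92. One on chromosome 7 with 6 hosts ran from -0.55 (Zfp790) to 0.90 (Zfp74), and included Zfp568, a KRAB factor that represses a placental transcript of Igf2, at 5.13 FPKM in CIA against 3.74 FPKM in healthy spleen cells (0.46). On chromosome 4, Zfp979, Zfp984 and Zfp933 were all higher in the CIA library (0.29, 0.20 and 1.0). In a group of 4 on chromosome 13, Zfp455 was lower in the CIA library, and Zfp712 had 1 transcript at 2.22 FPKM in CIA with a floor entry in healthy spleen cells and another that was lower, at 0.394 and 1.69 FPKM.

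Introns of the partner genes were measured in the same way. In the background of other class i hosts the median was 0.20, with 11.7% at least 2-fold higher and 10.3% lower. The partner lists held too few hosts for their counts to be set apart from these shares. Of 16 listed genes of the KRAB silencing pathway 6 were hosts, with a median of 0.27 and none past 2-fold. Among them Morc3, an ATPase of heterochromatin, summed to 17.0 FPKM in CIA against 10.7 FPKM in healthy spleen cells (0.81), Setdb1, the histone methyltransferase recruited by TRIM28, to 10.9 and 9.24 FPKM (0.38), and Cbx5 (HP1 alpha) to 5.14 and 6.74 FPKM (-0.39). Of 16 corepressor genes that work with BTB factors 8 were hosts, with a median of 0.32, none at least 2-fold higher and 1 lower. The highest was Hdac7, a class IIa histone deacetylase (11.9 and 6.01 FPKM), and the lowest was Gatad2b, a NuRD subunit (5.80 and 11.9 FPKM).

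C2H2 genes with other names and roles in blood cells were hosts in 25 of 47 cases, with a median of 0.27. Of these 25, 21 were above 0, 2 at least 2-fold higher and 1 lower. In the background of other class i hosts, 62.7% were above 0, 11.7% at least 2-fold higher and 10.3% lower. The 2 higher ones of the list were Bcl11b, needed for T cell identity (sums 24.1 and 10.2 FPKM, host ratio 1.44), and Ikzf3. The latter encodes Aiolos of the lymphocyte lineages (sums 15.1 and 5.46 FPKM, host ratio 1.04). The lower one was Mecom, a stem cell factor (sums 0.850 and 3.97 FPKM, host ratio -2.75), and Prdm10 followed at -0.78. Introns of cell type marker genes differed between the libraries as well. Of 10 T cell genes 5 were hosts, among them Bcl11b, all at least 2-fold higher (background 11.7%). Their summed levels were 156.4 FPKM in CIA against 63.1 FPKM in healthy spleen cells. Of 8 B cell genes 3 were hosts, all higher (216.2 and 139.3 FPKM). Of 6 erythroid genes 2 were hosts, both lower (80.1 and 93.7 FPKM), and of 6 proliferation genes only Diaph3 was, at 11.5 and 16.7 FPKM. None of 8 myeloid genes was a class i host. Introns of B and T cell genes were thus present in both libraries labelled spleen, and the part of cell makeup in the zinc finger ratios was not tested.

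Other assembled transcripts of genes with these names had medians on both sides of 0. Those sharing a splice junction with an annotated transcript numbered 12 from 10 genes (median -0.16). Among these, a Zfp141 transcript at the floor in both libraries entered with a ratio of 0. Those overlapping an exon on the same strand numbered 32 from 17 genes (0.29), and those on the opposite strand of an exon 11 from 7 genes (0.42). No background over all transcripts of these kinds was computed. Among annotated noncoding RNAs, Zfas1, the snoRNA host next to Znfx1, summed to 10.8 FPKM in CIA against 12.5 FPKM in healthy spleen cells. Zbtb11os1 stood at 2.50 and 1.72 FPKM. The 2 isoforms of Zfp335os, antisense to Zfp335, lay on opposite sides, at 1.51 and 0.413 FPKM for the longer one and 0.696 and 0.954 FPKM for the shorter. Zfas1 was thus lower and Zbtb11os1 higher in the CIA library.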

How the data were processed

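Total RNA of spleen cells was extracted with TRIzol and depleted of ribosomal RNA, per the labels' protocols. The authors assembled transcripts with StringTie, per the submitters' processing notes. The aligner, the strand setting and the authors' test were not given in the sources used here. Deposited values are FPKM per transcript, per the file headers, and 0.0001 replaces 0. For the fold the authors deposited, division of CIA by healthy FPKM gave the same ratio (relative tolerance 0.0001) for all 16840 assembled transcripts. A further column deposited by the authors is the log2 of that ratio. The p-value and q-value of each transcript are quoted as the authors gave them. All 15172 annotated transcripts had GENCODE M21 coordinates, and the build was therefore taken as GRCm38. FPKM keeps no counts, so the depth is unknown and no counting interval can be given.

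Python 3.11.15 with pandas 2.3.3 computed log2 ratios with a pseudocount of 0.1 FPKM, which understates the ratios of low transcripts. No ratio is printed for a host with a transcript at the floor, although such hosts count in the medians and under the 2-fold rule and are drawn with the pseudocount in the figures. Scripts were tested on simulated data. The members and gene lists were chosen with earlier results of these data known, and the listed roles therefore support no direction. Named were all Zbtb, Zkscan and Zscan hosts, the 10 highest and 10 lowest Zfp hosts, those with the most transcripts or the highest sums, the hosts of the list of described Zfp genes, and the 2 highest and lowest of the other lists. Descriptions by level, length, fingers, KRAB motif, promoter and position, with the genes named only there, were chosen after the data were seen. Fingers and the KRAB-like motif were searched as patterns in the longest coding sequence of the GENCODE transcripts. Promoters came from RefSeq. Intron sequences were not analysed here.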

Additional observations from a re-analysis of the deposited data

How the results depend on the processing

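The 10 set values were computed again under 9 alternatives, giving 88 values, of which 77 moved by less than 0.1 (log2 medians) or 1.5-fold (counts). With a pseudocount of 1 FPKM, 11 of 143 Zfp hosts were at least 2-fold higher and 6 lower, beside 5.37% and 4.90% of the other hosts. At that setting 26 of 368 member transcripts were higher and 14 lower, and no share over the other class i transcripts was computed. Centred on the median of all class i hosts, the medians were 0.14 for Zfp, 0.11 for Zbtb, -0.15 for Zkscan and Zscan and -0.0039 for the other hosts, so the direction of the last 2 turned. That shift follows from the centring itself. With hosts of at least 2 transcripts alone (72 Zfp, 7 Zbtb), 7 Zfp hosts were higher and 2 lower, and 0 Zbtb hosts were higher, since fewer hosts enter, beside 8.81% and 5.79% of the other hosts. Leaving out the CCCH family changed nothing because none of its genes was a host. No paired analysis was possible because there was 1 library per group, and for the same reason none could be left out. The unknown depth limits all values near 2 FPKM, where most 2-fold differences lay.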
